A study of Mus musculus with 6 samples.

Results

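The genes described here belong to the storage of latent TGF-β in the extracellular matrix, to its activation, or to the response to it. They were chosen by function and family: the latent TGF-β binding proteins Ltbp1, Ltbp2, Ltbp3 and Ltbp4, the integrin subunits Itgav, Itgb6 and Itgb8, the thrombospondin Thbs1, the TGF-β-induced matrix protein Tgfbi, and Lrrc32, which anchors latent TGF-β at the cell surface. All 10 genes had a probe set on the array, 1 each, and these were 10 of 35556 probe sets in the table. RNA was measured on Affymetrix Mouse Gene 1.0 ST arrays, 1 per tumor, in laser-dissected colon tumors of mice at 3 weeks of age. The study names the C57BL/6J strain for its Tgfbr2 flox/flox line, which was crossed with Apc flox/flox and CDX2P-G19Cre mice. The 3 tumors of the first group came from mice with CDX2P-G19Cre, Apc flox/flox and Tgfbr2 flox/flox (double knockout). The 3 of the second came from mice with CDX2P-G19Cre and Apc flox/flox (Apc knockout), so both groups lacked Apc in recombined cells. CDX2P-G19Cre expresses Cre from the CDX2 promoter in intestinal epithelium and recombines only in some cells, so by design the stroma of the tumors kept its own Tgfbr2 in both groups.

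TGF-β is secreted as an inactive complex in which the mature cytokine stays held by its propeptide. In the matrix this complex is tethered by most latent TGF-β binding proteins, which attach to fibrillin microfibrils and fibronectin. Integrins of the αv class pull on the propeptide and free the cytokine, and thrombospondin-1 and several proteases can activate it as well. In the intestine TGF-β restrains the growth of epithelial cells and drives matrix production by stromal cells, and loss of its type II receptor is a known step in colorectal cancer.

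Signals below are the authors' log2 values after robust multichip analysis (RMA), and they are compared for the same gene between tumors, never between genes. A difference is always the mean of double knockout tumors minus the mean of Apc knockout tumors on the log2 scale, tested with limma, which fits a linear model to every probe set and shares information on spread among them. Of the probe sets, 19506 were tested, namely sets paired with at least 1 symbol whose mean signal reached 5.88, and all 10 genes were among them. The median signal of an array was between 7.68 and 7.80. Double knockout tumor 2 was the least similar array, with correlations of 0.904 to 0.937 with other tumors, against 0.968 to 0.982 among the other 5. The epithelial marker Epcam was between 12.33 and 12.67 in the 6 tumors and E-cadherin (Cdh1) between 12.33 and 12.72. They were 2 of 10 listed epithelial markers, of which 3 had a lower double knockout mean and 7 a higher one. Apc knockout tumors had a list mean of 11.69 to 12.09 and double knockout tumors one of 11.86 to 12.10. Cdx2 was at 8.24 in double knockout tumor 2, against 10.08 to 11.18 in the other 5. Krt18 was lower (−0.41) and Epcam higher (0.13) with no overlap of the groups. Vil1 (0.53) and Cdx1 (0.67) were higher with overlap. Tgfbr2 itself was at 10.98, 10.35 and 10.47 in double knockout tumors and at 11.35, 11.37 and 11.09 in Apc knockout tumors, a difference of −0.67 (standard error 0.19, adjusted p = 0.821 from limma). The position of its probes relative to the deleted exon was not examined, so this value does not check the genotype.

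Of the 10 genes, 8 had a lower mean signal in double knockout tumors and 2 a higher one, with a median difference of −0.33, where the median over all tested sets was 0.01 and 47.7% of them were lower. Of these 8, Itgb8 had means that were equal to 2 decimals (7.75) and was on the higher side after median centring or a further quantile normalization, which leaves 7 of 10. None of the 10 passed an adjusted p of 0.05 in limma (their adjusted p was 0.821 or higher), nor did any probe set on the array (0%). The smallest adjusted p of all sets was 0.606, and the methods' t-test gave 0 adjusted calls too. At an unadjusted p under 0.05 in limma, 2 of the 10 genes were lower (Thbs1 and Ltbp2) and 0 higher, against 3.82% and 1.78% of all sets tested. The signals of the groups did not overlap for 3 genes that were lower (Thbs1, Ltbp2 and Itgav) and for 1 that was higher (Ltbp4), against 6.94% and 5.25% of all sets. Without double knockout tumor 2, 5 genes were lower without overlap, with Itgb8 and Lrrc32 added, where 10.7% of all sets were, and without Apc knockout tumor 2, 6 were, with Ltbp3, Tgfbi and Lrrc32 added, where 14.3% of all sets were. Ltbp4 was the 1 gene higher without overlap in both cases. The count at an unadjusted p under 0.05 was 1 without Apc knockout tumor 1, Apc knockout tumor 3 or double knockout tumor 1, where 3.47%, 3.81% and 4.5% of all sets were called in either direction, while omitting double knockout tumor 3 gave 5, where 8.8% were, against 5.6% with all tumors. With only 3 tumors a group, the exact permutation test cannot give a two-sided p under 0.1.

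**Figure D1:**
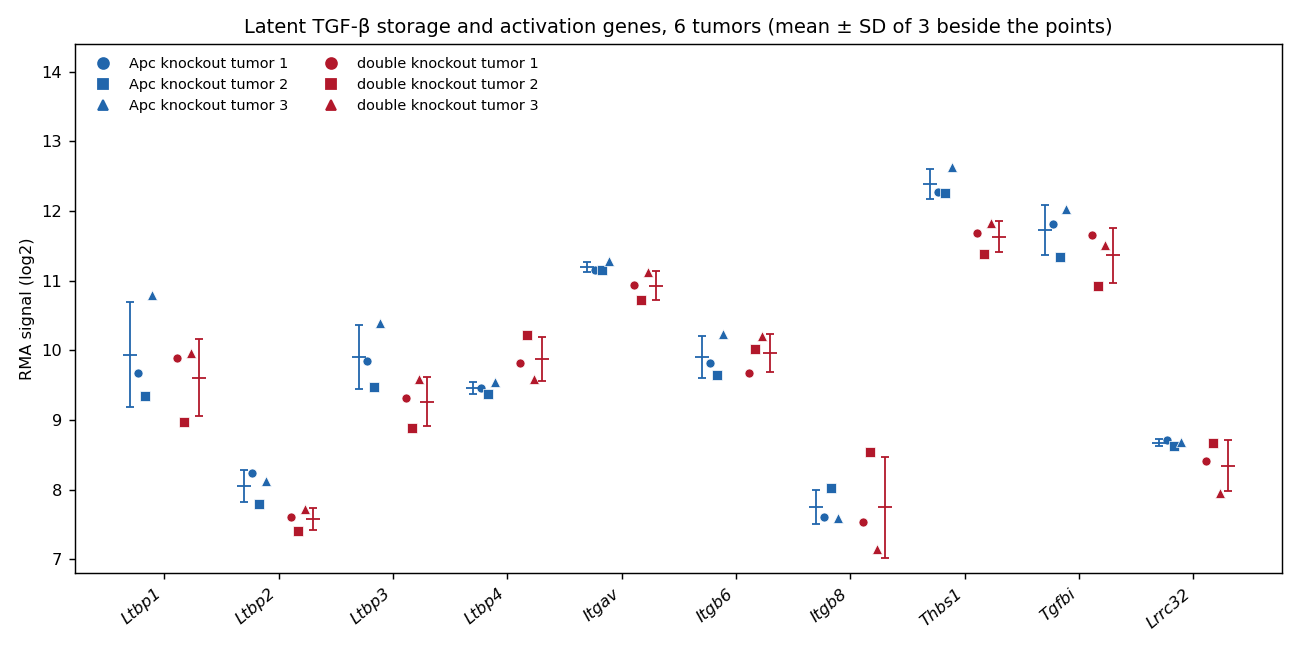
Log2 RMA signal (vertical axis) of the 10 genes (horizontal axis), each tumor drawn as 1 point (blue, Apc knockout; red, double knockout) next to the mean ± SD of its group of 3. The blue and red points are apart for Ltbp2, Ltbp4, Itgav and Thbs1 and mix for the other genes.

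Thrombospondin-1, a secreted glycoprotein of platelets, macrophages and stromal cells that can free TGF-β from its propeptide, had the widest gap between the groups of the 10 genes. Thbs1 was at 11.69, 11.39 and 11.83 in double knockout tumors 1 to 3 and at 12.28, 12.26 and 12.64 in Apc knockout tumors 1 to 3. All double knockout tumors lay below all Apc knockout tumors, with a gap of 0.43 between the nearest of them. The means were 11.63 ± 0.23 (SD, n = 3) and 12.39 ± 0.22 (SD, n = 3), which is 1.69-fold lower. The difference was −0.76 (standard error 0.17, 95% confidence interval −1.17 to −0.35, adjusted p = 0.821 from limma). By unadjusted limma p (0.00389), Thbs1 stood at rank 82 of 19506. With any 1 tumor left out, the difference was between −0.85 and −0.63, and omitting double knockout tumor 2 gave −0.63. Where the filter on level was replaced by one on the coefficient of variation, under 20% within each group, Thbs1 passed (adjusted p = 0.00839 from limma), as did 107 probe sets in all. That filter selects sets by the spread that the test divides by, and the number of sets it kept is not given here. In laser-dissected tissue, fewer cells of a type and less RNA per cell cannot be told apart.

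Markers of several cell types, among them cells that make thrombospondin-1, were compared between the groups beside it. The mean signal of 4 platelet and megakaryocyte markers of 6 listed was 7.42 to 7.49 in double knockout tumors, against 7.20 to 7.99 in Apc knockout tumors, so the groups overlapped. Pf4, a platelet chemokine, was highest in Apc knockout tumor 1 (9.33) and double knockout tumor 2 (8.86). The mean of 7 macrophage markers of 8 listed was 8.96 to 9.81 and 9.12 to 9.75, and that of 8 fibroblast markers was 9.38 to 10.09 and 9.60 to 10.26. Both overlapped as well. The mean of 8 endothelial markers was 8.68 to 8.88 and 8.52 to 9.07, and that of 8 smooth muscle markers 7.87 to 10.33 and 8.03 to 8.55, again with overlap. Of 8 neutrophil markers, 7 were lower in double knockout tumors, with a median difference of −1.20 and mean signals of 6.69 to 8.08 against 7.90 to 8.58. The part of these cells in the level of Thbs1 was not tested.

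The binding proteins differed from one another in direction, with Ltbp2 lower and Ltbp4 higher in every double knockout tumor. Ltbp2, which binds fibrillin but, unlike the other 3, does not bind latent TGF-β, was at 7.62, 7.41 and 7.72 in double knockout tumors and at 8.23, 7.80 and 8.13 in Apc knockout tumors. The groups did not overlap, but double knockout tumor 3 and Apc knockout tumor 2 lay only 0.08 apart. The difference was −0.47 (standard error 0.15, 95% confidence interval −0.85 to −0.10, adjusted p = 0.821 from limma), with an unadjusted limma p of 0.0216. Its unadjusted p was above 0.05 without Apc knockout tumor 1 (0.0758), Apc knockout tumor 3 (0.0648), double knockout tumor 1 (0.0504) or double knockout tumor 2 (0.0542).

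Ltbp4, which binds latent Tgfb1 and also assists in elastic fiber assembly, was at 9.82, 10.21 and 9.60 in double knockout tumors and at 9.46, 9.38 and 9.55 in Apc knockout tumors. Double knockout tumor 2 had the top value, and double knockout tumor 3 was only 0.04 above Apc knockout tumor 3. The difference was 0.41 (standard error 0.17, 95% confidence interval −0.01 to 0.84, adjusted p = 0.821 from limma), and 0.24 without double knockout tumor 2. Smooth muscle markers moved in that tumor too: the mean of all 8 was 10.33 there and 7.87 to 8.55 in the other 5 tumors, with Myh11, the smooth muscle myosin heavy chain, at 11.06 against 8.12 to 9.27. Their part in the level of Ltbp4 was not tested.

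Ltbp3 and Ltbp1, which bind latent TGF-β through a cysteine-rich domain and secrete it into the matrix, both varied more among tumors than Ltbp2 or Ltbp4. Ltbp3 was at 9.31, 8.89 and 9.58 in double knockout tumors and at 9.84, 9.48 and 10.39 in Apc knockout tumors. Only double knockout tumor 3 and Apc knockout tumor 2 crossed, by 0.10. The difference was −0.64 (standard error 0.28, 95% confidence interval −1.33 to 0.04), the second largest of the 10 genes, and it was −0.40 without Apc knockout tumor 3 and −0.46 without double knockout tumor 2. Ltbp1 was at 9.89, 8.97 and 9.96 in double knockout tumors and at 9.68, 9.35 and 10.79 in Apc knockout tumors, so the groups were mixed. Its difference of −0.33 (standard error 0.44, 95% confidence interval −1.41 to 0.74) was set by 2 tumors, Apc knockout tumor 3 at the top and double knockout tumor 2 at the bottom. Omitting the latter gave −0.02 and omitting the former gave 0.09.

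**Figure D2:**
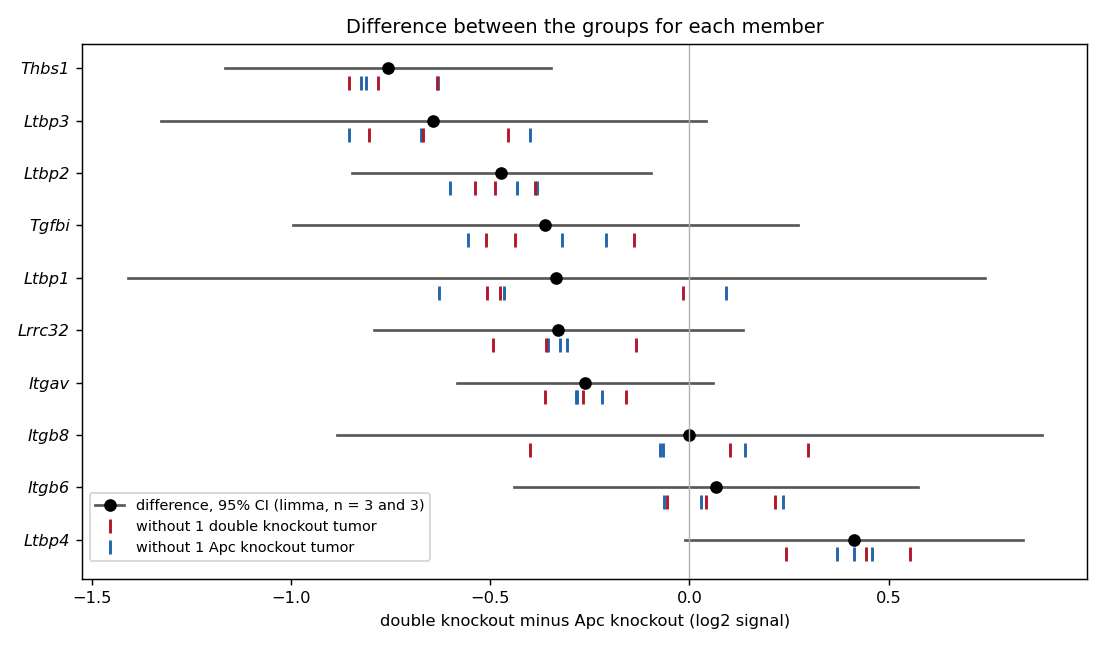
Difference between double knockout and Apc knockout tumors in log2 signal (horizontal axis) for each gene (vertical axis), with its 95% confidence interval from limma (points and lines), and the same difference with 1 tumor left out (ticks, red for a double knockout and blue for an Apc knockout tumor). The intervals of Thbs1 (−1.17 to −0.35) and Ltbp2 (−0.85 to −0.10) lie below 0, and the ticks of Ltbp1, Itgb6 and Itgb8 lie on both sides of 0.

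The sequences before the annotated starts of Ltbp2, Ltbp4 and Itgav are shown because these genes did not overlap between groups and have a window in the RefSeq promoter table. Each run is the 250 bases before the start on the gene's own strand, 5′ to 3′, in GRCm38.p6, and for Ltbp4, which has 3 windows, it is the one farthest upstream. Capitals mark CAGAC, the box that Smad proteins bind, and GGGCGG, the GC box of Sp factors, on either strand.
Ltbp2, chr12:84876492-84876741, minus strand: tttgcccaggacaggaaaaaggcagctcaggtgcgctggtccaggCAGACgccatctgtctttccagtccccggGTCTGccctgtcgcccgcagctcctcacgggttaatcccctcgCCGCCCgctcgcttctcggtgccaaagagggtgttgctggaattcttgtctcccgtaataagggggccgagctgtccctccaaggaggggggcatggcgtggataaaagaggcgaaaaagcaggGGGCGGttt
Ltbp4, chr7:27337613-27337862, minus strand: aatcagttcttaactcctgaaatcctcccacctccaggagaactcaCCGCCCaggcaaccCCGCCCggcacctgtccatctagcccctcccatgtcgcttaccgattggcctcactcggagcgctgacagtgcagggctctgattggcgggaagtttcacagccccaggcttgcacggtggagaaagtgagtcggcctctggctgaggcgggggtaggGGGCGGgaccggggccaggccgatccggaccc
Itgav, chr2:83724147-83724396, plus strand: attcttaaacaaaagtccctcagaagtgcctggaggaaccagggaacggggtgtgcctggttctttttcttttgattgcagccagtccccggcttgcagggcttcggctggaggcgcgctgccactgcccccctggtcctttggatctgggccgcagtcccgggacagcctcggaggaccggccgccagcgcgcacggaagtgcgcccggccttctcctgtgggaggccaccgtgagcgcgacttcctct
The Ltbp2 window held 2 Smad boxes and 2 GC boxes, the Ltbp4 window 0 and 3, and the Itgav window 0 of either. Over the 32851 windows of the table, 42.2% held at least 1 CAGAC and 32.7% at least 1 GGGCGG. Of the 12 windows of 8 genes of the group, 7 held CAGAC, 5 held GGGCGG, and 0 held the palindrome GTCTAGAC or the AP-1 motif TGANTCA, which 0.167% and 6.75% of all windows held. Both strands were searched and the windows of Ltbp4 overlap in part. The Tgfbi window held 2 Smad boxes and the Itgb8 window 1. Thbs1 and Lrrc32 had no entry.

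The integrins that activate TGF-β pair the αv subunit, encoded by Itgav, with a β subunit, of which Itgb6 encodes the one found in epithelium and Itgb8 one found in epithelium, nerve and immune cells. Itgav was at 10.94, 10.73 and 11.13 in double knockout tumors and at 11.15, 11.15 and 11.28 in Apc knockout tumors. The groups did not overlap, by a margin of 0.02. The difference was −0.26 (standard error 0.13, 95% confidence interval −0.58 to 0.06), and −0.16 without double knockout tumor 2, the lowest of the 6.

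Itgb6 was at 9.67, 10.02 and 10.21 in double knockout tumors and at 9.83, 9.64 and 10.24 in Apc knockout tumors. The values were mixed, and the difference of 0.07 had a 95% confidence interval of −0.44 to 0.57. Itgb8 was at 7.54, 8.55 and 7.15 in double knockout tumors and at 7.61, 8.03 and 7.60 in Apc knockout tumors. Double knockout tumor 2 had the top value and double knockout tumors 1 and 3 were the lowest, so that the means were equal at 7.75, with SDs of 0.72 and 0.24 (n = 3 each). Omitting double knockout tumor 2 gave an Itgb8 difference of −0.40, and omitting tumor 3 of that group gave 0.30. The 95% confidence interval of the difference with all tumors was −0.89 to 0.88.

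Tgfbi, a secreted adhesion protein of the matrix that was named for its induction by TGF-β, was at 11.66, 10.92 and 11.52 in double knockout tumors and at 11.81, 11.34 and 12.03 in Apc knockout tumors. Apc knockout tumor 2 lay below 2 of the 3 double knockout tumors. The difference was −0.36 (standard error 0.26, adjusted p = 0.824 from limma), and −0.14 without double knockout tumor 2. Lrrc32, known as GARP, holds latent TGF-β on the surface of regulatory T cells and platelets. It was at 8.41, 8.67 and 7.96 in double knockout tumors and within 8.62 to 8.72 in Apc knockout tumors, which had an SD of 0.05 (n = 3). Double knockout tumor 2 lay among the Apc knockout tumors and the other 2 below them. The difference of −0.33 (standard error 0.19, 95% confidence interval −0.79 to 0.13) became −0.13 when double knockout tumor 3 was left out and −0.49 when tumor 2 of that group was.

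Markers of T cells, among which Lrrc32 is best known, were higher in the mean of double knockout tumors, where Lrrc32 was lower in its mean. The mean of 10 T cell and regulatory T cell markers was 7.36 to 7.83 in double knockout tumors, against 7.21 to 7.43 in Apc knockout tumors, with 8 of the 10 higher. Only double knockout tumor 1 (7.83) lay above the Apc knockout range, while tumors 2 (7.37) and 3 (7.36) lay within it. At an unadjusted limma p under 0.05, 2 of the markers were higher, against 1.78% of all sets. These were Ikzf2 and Il2ra, which were named after their values were seen. The mean of 8 endothelial markers was 8.68 to 8.88 and 8.52 to 9.07. Lrrc32 and the fibroblast, macrophage and smooth muscle lists were all lowest in double knockout tumor 3. The part of any of these cells in its level was not tested.

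Among the tumors, Apc knockout tumor 3 had the highest signal for 6 of the 10 genes and double knockout tumor 2 the lowest for 6. These 6 genes with the lowest signal in double knockout tumor 2 were Ltbp1, Ltbp2, Ltbp3, Itgav, Thbs1 and Tgfbi, and the same tumor was the highest for Ltbp4 and Itgb8. Double knockout tumor 3 was the lowest for Itgb8 and Lrrc32, and Apc knockout tumor 2 for Itgb6 and Ltbp4. Without double knockout tumor 2 the count of genes with a lower mean stayed at 8 of 10, with a median difference of −0.27. Without Apc knockout tumor 3 it was 7 of 10, with a median of −0.22.

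**Figure D3:**
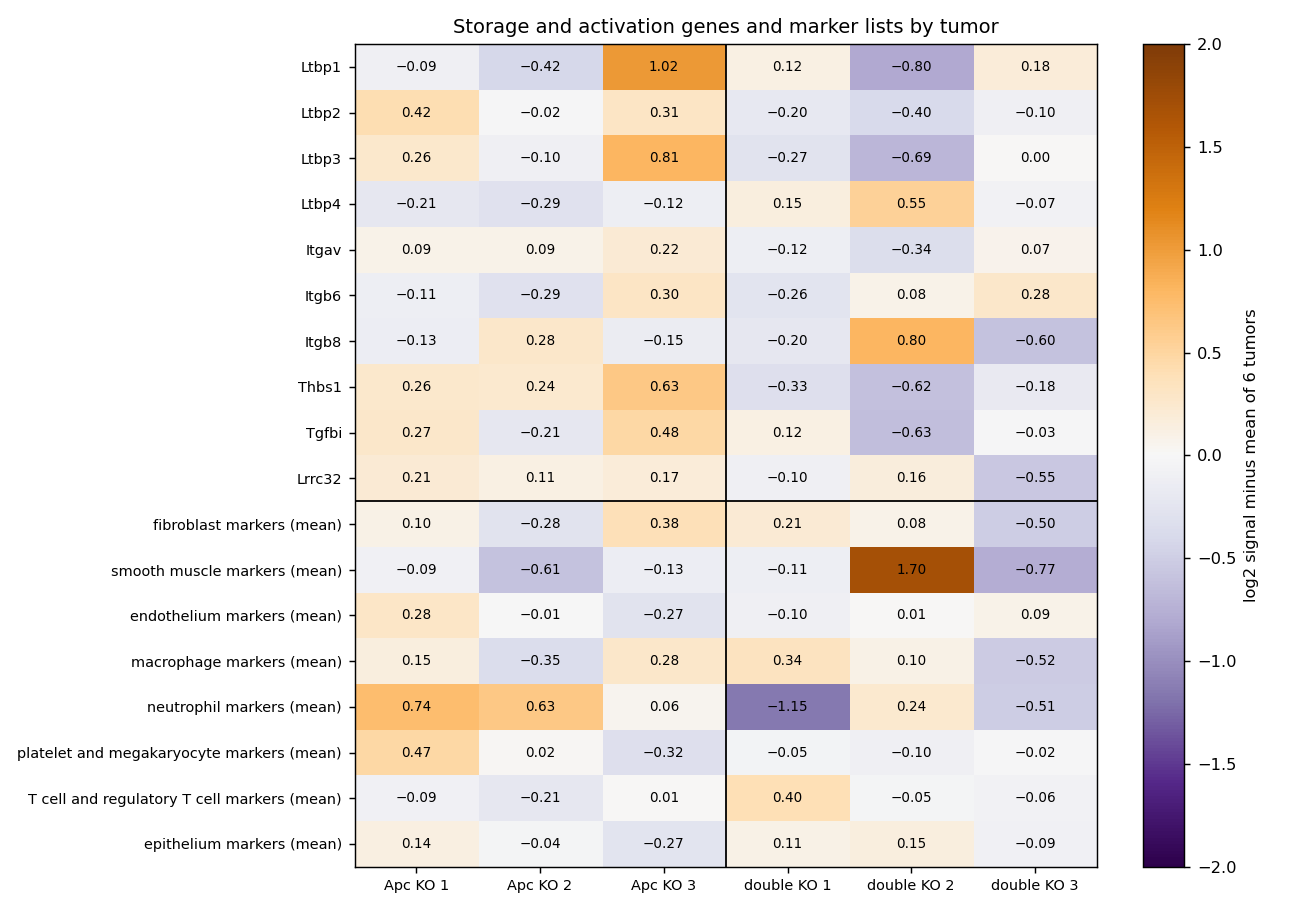
Log2 signal minus the mean of the 6 tumors (colour and printed value) for each of the 10 genes and for the mean of each cell type marker list (rows) in each tumor (columns; KO, knockout). Double knockout tumor 2 is at −0.80 for Ltbp1, −0.62 for Thbs1, 0.55 for Ltbp4 and 0.80 for Itgb8, and at 1.70 for the smooth muscle list.

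Other thrombospondins and integrin subunits did not all share the pattern of Thbs1 and Itgav. Of the integrin subunits outside the group, Itgb3, which pairs with αv on platelets, endothelium and osteoclasts, was at 9.23, 8.97 and 8.99 in double knockout tumors and at 9.64, 9.53 and 9.82 in Apc knockout tumors. The groups were 0.30 apart at their nearest. The Itgb3 difference was −0.60 (standard error 0.13, adjusted p = 0.821 from limma), with an unadjusted limma p of 0.00325. Itga5, the partner of β1 in the fibronectin receptor, differed by −0.38 (standard error 0.14) without overlap. Itgb1 (−0.09), Itgb5 (0.09) and Itga8 (0.21) were mixed between groups.

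Thbs2, a matrix thrombospondin of fibroblasts that lacks the sequence by which Thbs1 activates TGF-β, spread from 8.48 in double knockout tumor 2 to 12.56 in Apc knockout tumor 1. The other Thbs2 values were 11.24 and 11.12 in double knockout tumors, against 9.91 and 11.51 in Apc knockout tumors, so the groups were mixed. Thbs4, a thrombospondin of muscle and tendon, was at 12.09 in double knockout tumor 2 and at 6.71 to 6.90 in the other 5 tumors. The other double knockout tumors, at 6.83 and 6.79, lay within the range of the Apc knockout tumors, so the difference of 1.77 (standard error 1.42) came from 1 tumor. Thbs3, named after its values were seen, differed by 0.18 with mixed groups. Nrros, which anchors latent TGF-β on myeloid cells much as Lrrc32 does on T cells, differed by 0.21 with mixed groups.

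**Figure D4:**
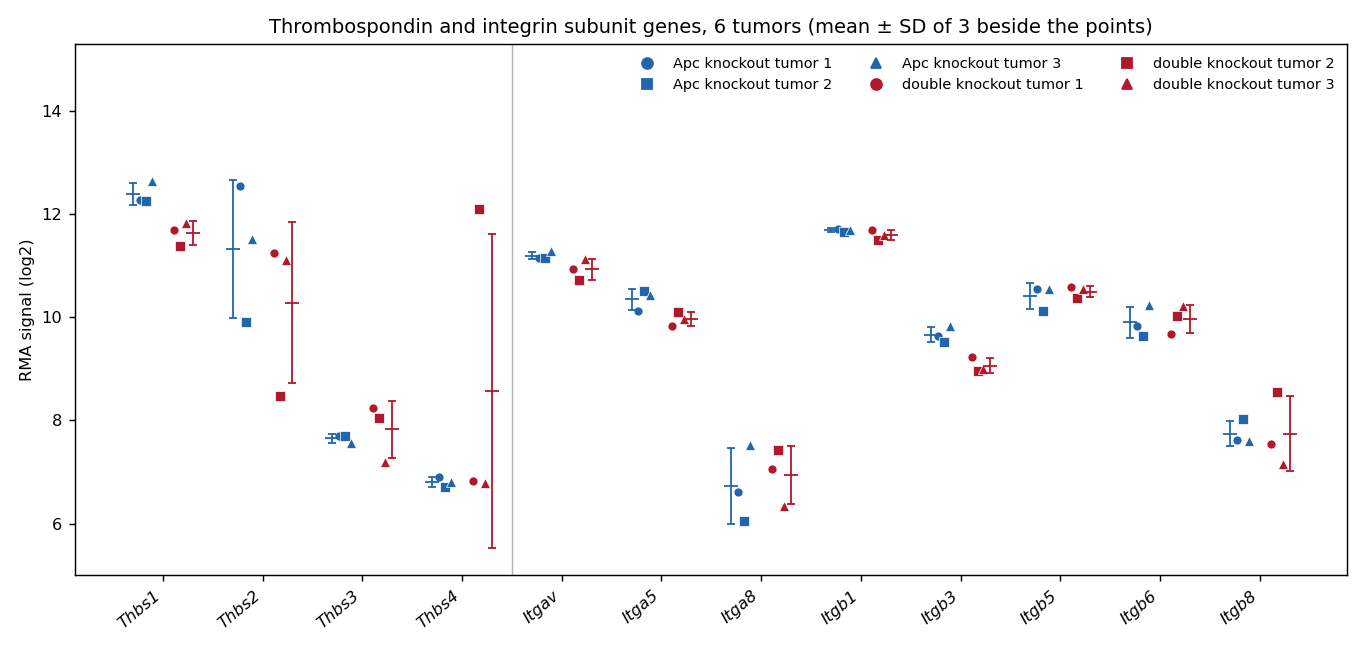
Log2 RMA signal (vertical axis) of the 4 thrombospondin genes (left of the line) and 8 integrin subunit genes (right), each tumor drawn as 1 point (blue, Apc knockout; red, double knockout) next to the mean ± SD of its group of 3. The groups are apart for Thbs1, Itgav, Itga5 and Itgb3, and a single red square shows Thbs4 at 12.09 in double knockout tumor 2.

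Other genes of latent TGF-β storage and activation were described from a list of 34, of which 32 had a probe set of their own. Of these, 25 had a lower mean in double knockout tumors and 7 a higher one, with a median difference of −0.24, or −0.13 without double knockout tumor 2. At an unadjusted limma p under 0.05, 5 were lower and 0 higher, 0 passed the adjusted threshold in limma, and the groups did not overlap for 6 lower and 1 higher gene. Over all sets tested, 3.82% were lower and 1.78% higher at that p, and 6.94% and 5.25% did not overlap. The genes of the cytokine itself, Tgfb1 (−0.22), Tgfb2 (−0.45) and Tgfb3 (−0.31), were all lower in their mean and mixed between groups. Tgfb1 was at 9.67, 9.13 and 9.86 in double knockout tumors and at 9.78, 9.62 and 9.92 in Apc knockout tumors, with double knockout tumor 2 the lowest.

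All 10 proteases of the list had a lower mean in double knockout tumors, with a median difference of −0.50. The mean of the 10 was 9.38 in double knockout tumor 2, against 9.86 and 10.06 in the other tumors of that group, where the Apc knockout range was 10.17 to 10.40, and that tumor was lowest for 6 of them. When it was left out, all 10 were still lower in their mean, with a median of −0.35, but Mmp9, Htra1 and Furin then differed by only −0.07, −0.06 and −0.05 (these 3 were named after their values were seen). Plat, the tissue plasminogen activator, was at 10.49, 9.67 and 10.94 in double knockout tumors and at 11.95, 11.44 and 11.62 in Apc knockout tumors. The Plat groups did not overlap, and the difference was −1.30 (standard error 0.34, adjusted p = 0.821 from limma). Plat is among the genes that the study itself listed from these tumors, so it is not independent evidence of direction. Bmp1, the protease that cleaves Ltbp1 and procollagens, differed by −0.61 (standard error 0.21) and Mmp14, a membrane-bound metalloproteinase, by −0.65 (standard error 0.25), both without overlap. Plg, the plasminogen gene, differed by −0.25 without overlap, but its signals were near the filter level of 5.88. Double knockout tumors 1 to 3 had 5.86, 6.02 and 5.96, and Apc knockout tumors 1 to 3 had 6.28, 6.08 and 6.23. The gap between the nearest of them was 0.05.

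Of 7 matrix anchors with a probe set, 6 were lower in their mean and 0 had an unadjusted limma p under 0.05. Fn1, fibronectin, to which Ltbp1 binds, was at 12.08, 12.08 and 12.55 in double knockout tumors and at 12.79, 12.31 and 12.97 in Apc knockout tumors, with 1 crossing between the groups. Mfap5, a microfibril protein, was the only gene of the list that was higher without overlap, at 6.93, 9.08 and 6.40 against 6.30, 6.25 and 6.03, and it was highest in double knockout tumor 2, where the smooth muscle markers were highest. Fbn1 and Efemp2 were paired with no probe set.

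Genes that respond to TGF-β, to which Tgfbi belongs, were described as a further list, 11 of 13 with a probe set of their own. Of these, 8 were lower and 3 higher in their mean, with a median difference of −0.27. Ldlrad4, which dampens TGF-β signaling through Smads, was the only one with an unadjusted limma p under 0.05 (−0.35, standard error 0.13). It was at 9.08, 8.72 and 9.07 in double knockout tumors and at 9.24, 9.39 and 9.29 in Apc knockout tumors, without overlap. Smad7 (−0.51), Ccn2 (−0.49) and Pmepa1 (−0.27), all known targets, had overlapping groups, and Smad7 had its lowest value (9.43) in double knockout tumor 2.

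**Figure D5:**
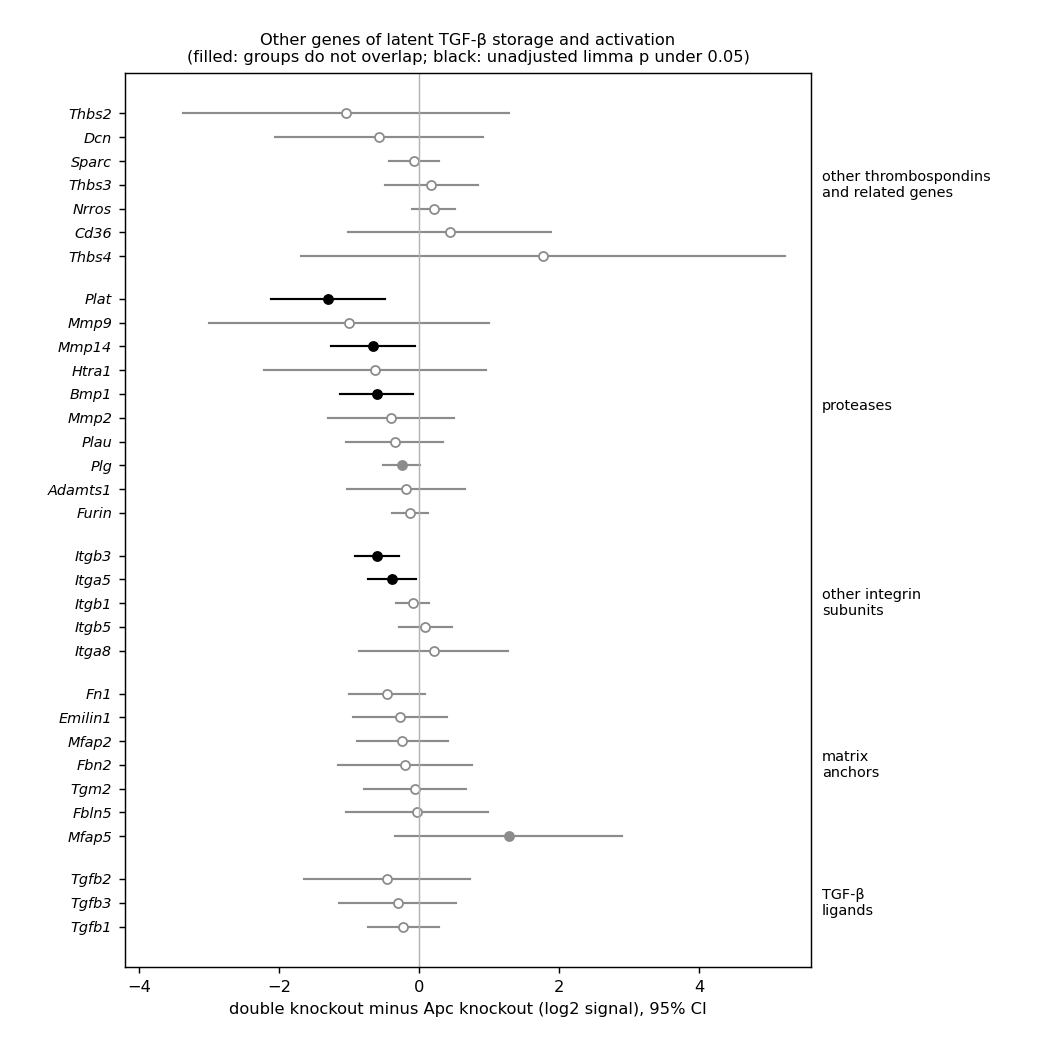
Difference between double knockout and Apc knockout tumors in log2 signal (horizontal axis) with its 95% confidence interval from limma, for the 32 other genes of latent TGF-β storage and activation (vertical axis), grouped by role. Filled points mark groups that do not overlap and black marks an unadjusted limma p under 0.05, which 5 genes have (Plat, Mmp14, Bmp1, Itgb3 and Itga5), all of them lower.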

How the data were processed

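RNA of laser-dissected tumors was hybridised by the authors to Affymetrix Mouse Gene 1.0 ST arrays, 3 tumors per genotype. The deposited values are log2 signals that the authors made by RMA in GeneSpring GX, which sets the arrays to a common distribution. Of 35556 probe sets, 21789 were paired with 1 gene symbol, 1621 with several and 12146 with none. A gene was measured by the probe set with the highest mean over the 6 arrays. Sets with 1 symbol and a mean signal at or above the 20th percentile (5.88) were fitted with limma 3.58.1 in R 4.3.3 (lmFit, eBayes), double knockout minus Apc knockout, with Benjamini-Hochberg adjustment over 19506 sets. The script was tested on simulated data. A further 16 settings were run, among them the methods' t-test. Array depth has no counts, so the number of arrays limits the precision. The labels do not state litters or whether each tumor came from its own mouse. The p-values set each difference against the spread among these tumors, and whether that is a spread between mice is not known. The genes, lists and tests were chosen with earlier results of these data known. Named genes were all 10, Tgfbr2, the ligands, the listed genes with an unadjusted p under 0.05 or no overlap, otherwise up to 3 per list by smallest p, and the first 4 of each marker list. Thbs3, Ikzf2, Il2ra, Mmp9, Htra1, Furin, Cdx2, Vil1 and Cdx1 were named outside this rule. The proteases without double knockout tumor 2 were computed after seeing the data. Promoter windows came from RefSeq (GRCm38.p6).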

Additional observations from a re-analysis of the deposited data

How the results depend on the processing

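The direction of Thbs1, Ltbp2, Ltbp3, Ltbp4, Itgav, Tgfbi and Lrrc32 was kept in every setting in which they were tested. With 1 tumor left out, Ltbp1 was between −0.63 and 0.0908, the latter without Apc knockout tumor 3. Itgb6 was between −0.0632 and 0.23 in the same way, below 0 without Apc knockout tumor 2 (−0.0632) or double knockout tumor 3 (−0.0557). Itgb8 turned to 0.0334 after median centring, 0.0377 after a further quantile normalization, 0.14 without Apc knockout tumor 2, 0.10 without tumor 1 of the double knockout group and 0.30 without its tumor 3, within a range of −0.40 to 0.30. The cause was not tested. With a 20% limit on the coefficient of variation within each group as the filter, 3 of the 10 genes were tested, all 3 lower. Of them 1, Thbs1, passed the adjusted threshold, among 107 probe sets in all. The number of sets that this filter kept is not given here, so its counts have no share over all sets beside them. That filter left 6 other pathway genes lower and 3 with an unadjusted p under 0.05. Of the probe sets that it kept, 915 were lower and 698 higher at that p. The methods' t-test gave 3 other pathway genes at that p, where 589 of all sets were lower and 409 higher. With all 35556 probe sets tested, 1081 were lower and 690 higher at that p, against 745 and 347 of the 19506 sets of the main fit. The labels do not say whether equal replicate numbers pair the tumors. The correlations of deviations of same-numbered tumors were −0.20, −0.06 and 0.09, and those of the other pairs ran from −0.21 to 0.26. Deviations from means of 3 tumors cannot decide whether there was a pairing. With the replicate number as a block, 8 other pathway genes had an unadjusted p under 0.05 against 5, and 3 of the 10 genes against 2. Calls rose over all 19506 sets too, with 929 lower and 421 higher at that p, against 745 and 347 without the block.

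With 1 tumor left out, 439 to 1006 probe sets were lower and 238 to 710 higher at an unadjusted p under 0.05, the fewest lower without Apc knockout tumor 1 (439) and the most higher without double knockout tumor 3 (710). Of the 10 genes, 1 to 5 were at that p, 7 to 8 were lower in the mean, and 3 to 6 were lower without overlap, with 1 higher throughout, where 9.74% to 14.3% of all sets were lower without overlap and 8.93% to 12.4% higher. Their median difference was −0.46 to −0.22. Of the other pathway genes, 22 to 26 were lower in the mean, 2 to 8 were at that p (8 without double knockout tumor 3, and 2 and 3 without tumors 3 and 1 of the Apc knockout group), and the median difference was −0.36 to −0.13.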
